A study of Homo sapiens with 10 samples.

Results

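The 47 genes described here encode the extracellular matrix of human cells and the enzymes that fold and crosslink collagen. They were listed by name and are collagens, laminins and other basement membrane proteins, matrix glycoproteins, matricellular proteins and collagen processing enzymes. All 47 symbols were found among the 58395 genes counted, and 42 of them were among the 16905 genes with enough counts to be tested. The other 5 members, COL1A2, COL3A1, COL6A3, THBS2 and POSTN, had at most 21 raw counts in any library. The list was drawn up when the fold changes of FN1, TNC and TGM2 with siGGGGGC at 48 h, of TGM2 at 24 h and of FN1 between the siRNAs were known. Those values are therefore given as a description, with no test, and how many of the 42 genes moved is likewise a description.

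The cells were HeyA8, an established human ovarian cancer line derived from Hey cells. They were transfected in culture, in duplicate wells, with 10 nM of a short interfering RNA (siRNA) duplex whose passenger strand was chemically modified, and total RNA was sequenced. Control cells received siNT1, a non-targeting duplex, for 24 or 48 h. Treated cells received siGGGGGC for 24 or 48 h, or siGGCAGU for 48 h, each duplex being named after the 6 bases at positions 2 to 7 of its guide strand, the 6mer seed. There were 2 libraries in each of the 5 groups, 10 in all, and no siGGCAGU library at 24 h was analysed here. Replicates were wells of 1 cell line, so p-values measure the spread between wells and libraries and not between independent lines or donors. In bulk RNA, fewer cells of a kind and less RNA of a gene per cell cannot be told apart. The paper reports that siGGGGGC and siGGCAGU both slowed the growth of HeyA8 cells and lowered their viability relative to siNT1. The part of slower growth or cell death in the values below was not tested.

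Total counts ran from 19781445 to 42428986 a library. RN7SL2 and SNORD3A, abundant small structural RNAs, took 19.83 to 31.96% of the counts. The matrix genes took 0.161 to 0.524%. The line expressed the keratins KRT7, KRT8 and KRT18, the ovarian factor PAX8 and the mesenchymal marker VIM in every library. CDH1, which encodes the epithelial E-cadherin, had at most 19.34 normalised counts, and the ovarian antigen MUC16 at most 31.03. The fibroblast matrix genes DCN and LUM stayed below 3 normalised counts in all libraries, and none of the 4 immune markers had enough counts to be tested. Over the 6 fibroblast markers the summed level per kilobase of exon ranged from 6.45 to 21.5 across the libraries, against 4652 to 9956 for the 6 mesenchymal markers. PDGFRB, a receptor of fibroblasts and pericytes, was the only called fibroblast marker with siGGGGGC at 48 h, at 33.53 and 56.95 counts beside 5.422 and 2.291 with siNT1. With siGGGGGC at 48 h, 5 of the 7 tested carcinoma markers were lower by the call defined below (PAX8 at −2.70, WT1, KRT7, KRT8 and KRT18) and none higher, while EPCAM differed by 0.05 (edgeR's quasi-likelihood test, adjusted p = 0.889). Of the 6 mesenchymal markers AXL (−2.92) and SNAI2 (−1.75) were called lower and ZEB2 (1.06) higher, and VIM, CDH2 and ZEB1 were not called. With siGGCAGU at 48 h WT1 (−1.33), EPCAM (−1.13) and AXL (−1.14) were called lower and SNAI2 (1.03) higher, and so were the endothelial markers PECAM1 and KDR, with at most 30.08 normalised counts. The part of these marker shifts in the matrix values below was not tested.

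The extracellular matrix is a network of secreted proteins that holds cells in place and binds growth factors. Collagen chains are hydroxylated on proline and lysine in the endoplasmic reticulum, kept soluble by the chaperone HSP47, and crosslinked outside the cell by lysyl oxidases and transglutaminase. Basement membranes are sheets of laminin and type IV collagen joined by nidogens and heparan sulfate proteoglycans. Fibronectin is a glycoprotein on which carcinoma and mesenchymal cells attach and migrate, while tenascin C is a largely anti-adhesive glycoprotein.

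A small RNA silences transcripts mainly through pairing of its seed with the 3′ UTR. The natural human miRNAs that carry these seeds are shown because they share what names each duplex, with bases 2 to 8 in capitals and sequences from RefSeq (GRCh38.p14). The first pair has the seed GGCAGU and the second pair GGGGGC.
hsa-miR-34a-5p: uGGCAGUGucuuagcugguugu
hsa-miR-449a: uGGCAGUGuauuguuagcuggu
hsa-miR-1237-5p: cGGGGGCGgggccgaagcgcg
hsa-miR-4488: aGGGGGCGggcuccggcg
miR-449b-5p and miR-548au-3p also carry GGCAGU at positions 2 to 7.

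The DNA words that pair with the seeds are GCCCCC for siGGGGGC and ACTGCC for siGGCAGU. They were searched on the transcript strand of the longest annotated 3′ UTR of each gene (GENCODE 44, hg38), where a GCCCCC may share letters with an ACTGCC before it. GCCCCC was found in 18 of the 47 matrix genes and ACTGCC in 21. Among tested genes with an annotated 3′ UTR GCCCCC was in 40.5% of matrix genes and 31.6% of all 12397 genes, and ACTGCC in 21 of the 42 matrix genes and 36.5% of all genes. TGM2, which encodes transglutaminase 2, held 4 copies of GCCCCC, the most of any member, all in its 3′ UTR on the minus strand of chromosome 20. HSPG2, COL6A2 and LOXL2 held 3 each. FN1, which encodes fibronectin, held neither word, nor did VCAN or COL8A1, and TNC held a single ACTGCC. The copies of GCCCCC in TGM2 and the copies of either word in PLOD1 and TNC are shown with 12 bases on each side and the word in capitals, as examples of genes called lower with at least 1 duplex. TGM2 also held a single ACTGCC, which is not shown. Other members called lower with siGGGGGC held ACTGCC too, the word for the other duplex, with 3 copies in FBN1 and 1 each in COL5A2 and LOX. The FBN1 copies lay between 48641383 and 48642319 on chromosome 15, near the start of this minus-strand gene (48408313 to 48645721). The longest annotated 3′ UTR of FBN1 was thus that of a transcript that ends early in the gene. The same held for COL4A2, a plus-strand gene of chromosome 13 (110305812 to 110513209). Its GCCCCC started at 110360789 and its ACTGCC at 110361832. FBN1 and COL4A2 were counted with these matches.
TGM2, chr20:38130186-38130191, minus strand: agcctgctgagaGCCCCCaccttgatccca
TGM2, chr20:38129510-38129515, minus strand: agagaggaggcaGCCCCCtccacaccagtg
TGM2, chr20:38128841-38128846, minus strand: tgcagggctaagGCCCCCaaacatagcccc
TGM2, chr20:38128688-38128693, minus strand: acagcctccaggGCCCCCcaaatcccaggg
PLOD1, chr1:11975104-11975109, plus strand: tgaaaaaccaagGCCCCCttcccccacctc
PLOD1, chr1:11974855-11974860, plus strand: ttgccgacaaccACTGCCcagcagcctctg
TNC, chr9:115019862-115019867, minus strand: ccccagaggcagACTGCCtgagttcaattc
FSTL1 and AGRN, which were higher with siGGGGGC, also held GCCCCC, with 2 copies each. The first copy of each gene is shown for comparison.
FSTL1, chr3:120396103-120396108, minus strand: aataacccagatGCCCCCaccctgccacat
AGRN, chr1:1055223-1055228, plus strand: tcaaggtgctgaGCCCCCgccttgcactgc
A word match is a description of the sequence and was not tested as a binding site.

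Summed over the 47 genes, the normalised counts (raw counts scaled to library sizes adjusted by trimmed means) were 57974 and 59597 with siNT1 at 24 h and 97283 and 85820 with siNT1 at 48 h. They were 47853 and 47271 with siGGGGGC at 24 h and 50612 and 50839 at 48 h. With siGGCAGU at 48 h they reached 134448 and 125087. The siGGGGGC libraries were thus the lowest of their time, and the siGGCAGU libraries the highest, with no overlap between groups. FN1 alone gave 27733 and 25241 of the siGGCAGU counts. Without FN1 the order at 48 h was the same, with means of 73963 ± 4661 for siNT1, 103281 ± 4857 for siGGCAGU and 49390 ± 65.4 for siGGGGGC at 48 h (SD, n = 2 each). These sums still held TNC and TGM2, whose falls with siGGGGGC at 48 h were known when the list was drawn up. Mean counts at 48 h with siNT1 and siGGGGGC were 6689 and 506.6 for TNC, and 10669 and 508.1 for TGM2. A large part of the gap between these groups was thus known beforehand, and the sums are a description.

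**Figure D1:**
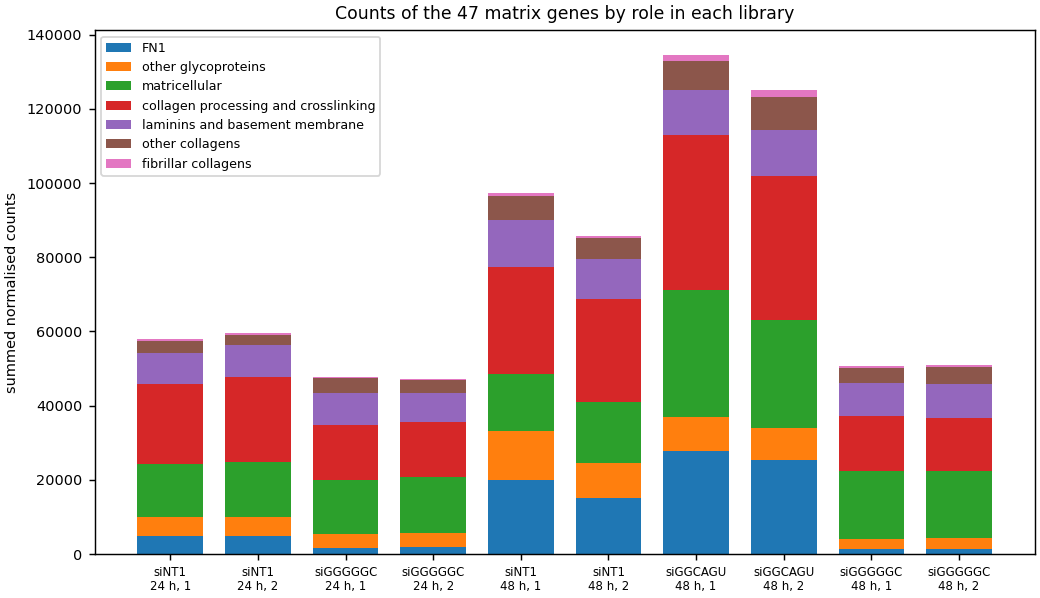
Summed normalised counts (linear axis from 0) of the 47 matrix genes in each of the 10 libraries, with FN1 and the roles stacked in colour. The siGGCAGU bars are the tallest (134448 and 125087 counts) and the FN1 segment is nearly absent from the siGGGGGC bars at 48 h (1268 and 1402 counts).

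Per kilobase of exon, the highest members in siNT1 cells at 48 h were SPARC at 1587 normalised counts, TGM2 at 1342, FN1 at 1022 and PLOD2 at 832.4. Exon length was that of the exons of all annotated transcripts together, so this order depends on the annotation. Without division by length the order was another, with means of 17588 for FN1, 12084 for PLOD2, 10669 for TGM2 and 7360 for SPARC. SPARC is a collagen-binding matricellular protein and PLOD2 a lysyl hydroxylase. With siGGGGGC at 48 h, SPARC stood at 1548 per kilobase, TGM2 at 63.93 and FN1 at 77.53. Fibrillar collagen I was near absent, since COL1A1 had at most 31.39 normalised counts and COL1A2 at most 8.353 in any library.

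Calls needed both an adjusted p under 0.05 and a difference larger than 1 on the log2 scale, in either direction. The p came from edgeR's quasi-likelihood test with Benjamini-Hochberg adjustment over all 16905 genes, and so did every adjusted p below. All differences below are log2 fold changes.

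With siGGGGGC at 48 h, the abundant members with the largest falls encoded transglutaminase 2, tenascin C, fibronectin, versican, the chaperone HSP47 and the lysyl hydroxylase PLOD1. Of the 42 tested members, 16 were called against siNT1, where 21.5% of all genes were. Of these, 5 were higher (10.5% of all genes) and 11 lower (11.0%). The median over the members was −0.61, beside −0.01 over all genes. Passing the p threshold alone were 7 higher and 23 lower members, beside 27.8% and 27.5% of all genes.

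With siGGCAGU at 48 h, 17 of the 42 members were called, beside 20.3% of all genes. In this comparison 14 were higher (10.7% of all genes) and 3 lower (9.62%), and the member median was 0.54, beside 0.02. Passing the p threshold alone were 25 higher and 6 lower members, beside 27.8% and 24.9% of all genes. Both comparisons used the same siNT1 libraries, so their values are set side by side and were not counted against each other.

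**Figure D2:**
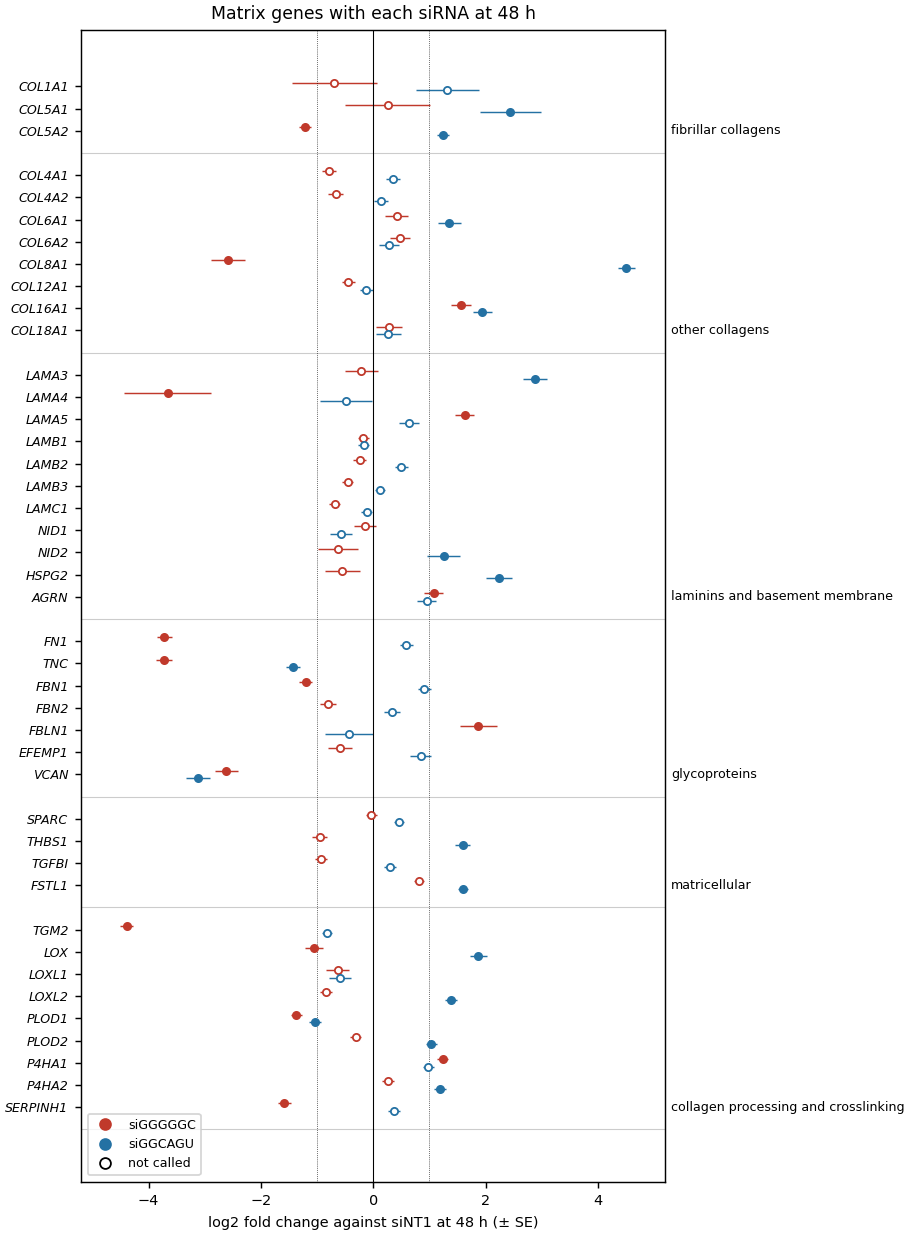
Log2 fold change (± SE) of the 42 tested matrix genes at 48 h against siNT1, grouped by role, in red for siGGGGGC and in blue for siGGCAGU, with open points for genes not called and dotted lines at −1 and 1. COL8A1 lies at −2.59 with siGGGGGC and 4.50 with siGGCAGU, while VCAN and TNC lie below −1 with both.

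Among the glycoproteins, FN1 had 20024 and 15152 normalised counts in the siNT1 libraries at 48 h. It had 1268 and 1402 with siGGGGGC and 27733 and 25241 with siGGCAGU. The siGGGGGC libraries lay far below either control, and both siGGCAGU libraries lay above both controls. The difference from siNT1 was −3.72 (SE 0.129), a 13.2-fold lower level, with siGGGGGC. With siGGCAGU it was 0.59 (SE 0.115), which did not reach the size needed for a call. The siGGCAGU value follows from the FN1 differences known when the list was drawn up, so it carries no test.

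TNC, an anti-adhesive glycoprotein of remodelled tissue, had 7682 and 5697 counts with siNT1 at 48 h. It had 471.7 and 541.6 with siGGGGGC and 2716 and 2276 with siGGCAGU. All treated libraries were below both controls. The difference was −3.72 (SE 0.143) with siGGGGGC and −1.42 (SE 0.127, adjusted p = 1.68e-07) with siGGCAGU.

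VCAN, which encodes the chondroitin sulfate proteoglycan versican, had 331.5 and 245.2 counts with siNT1 at 48 h. It had 39.12 and 53.85 with siGGGGGC and 35.31 and 31.24 with siGGCAGU. Every treated library was far below the controls. VCAN fell by 2.62 (SE 0.207, adjusted p = 5.68e-08) with siGGGGGC and by 3.12 (SE 0.216, adjusted p = 1.13e-08) with siGGCAGU, the largest fall of any member with that duplex. Between the duplexes its difference was 0.51 (SE 0.278, adjusted p = 0.138), which did not pass the test.

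The fibrillins form microfibrils that hold latent TGF-beta. FBN1 fell by 1.20 (SE 0.116, adjusted p = 4.54e-07) with siGGGGGC and was 0.91 higher (SE 0.111, adjusted p = 5.08e-06) with siGGCAGU. FBN2 was −0.80 (SE 0.143, adjusted p = 0.000205) with siGGGGGC and 0.34 (SE 0.14, adjusted p = 0.0539) with siGGCAGU. FBLN1, which encodes the fibronectin-binding protein fibulin 1, ran the other way: its 64.83 and 55.92 counts with siGGGGGC compared with 15.49 and 17.19 with siNT1, a rise of 1.87 (SE 0.328, adjusted p = 0.000181). EFEMP1, an elastic fibre fibulin, was −0.59 with siGGGGGC (SE 0.218, adjusted p = 0.031) and 0.85 with siGGCAGU (SE 0.188, adjusted p = 0.00138).

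**Figure D3:**
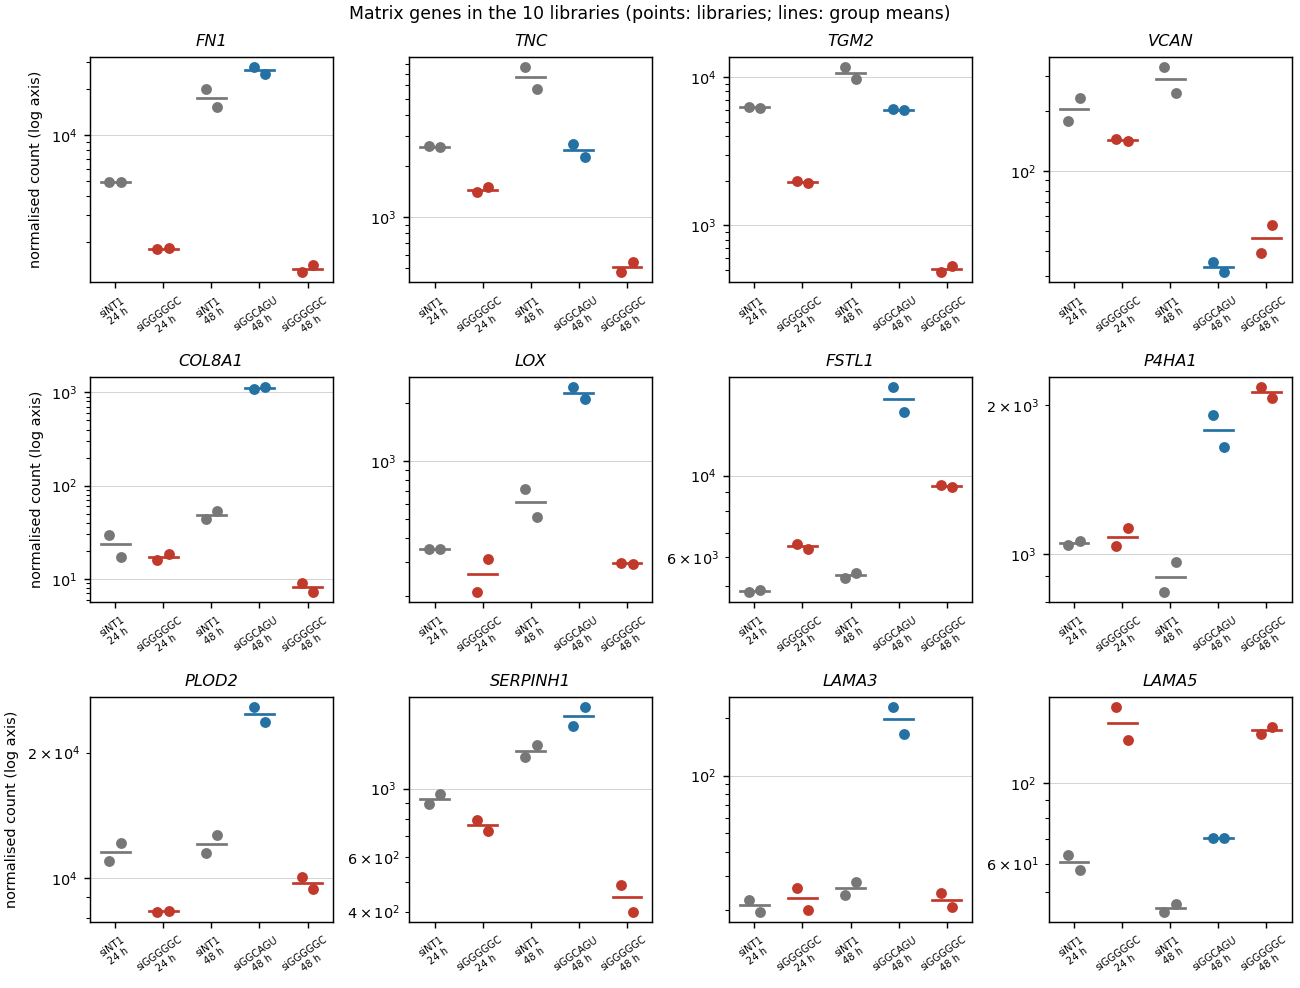
Normalised counts (log axes, which differ between panels) of 12 matrix genes in each library, as points, with lines at the group means, in grey for siNT1, red for siGGGGGC and blue for siGGCAGU. FN1, TNC and TGM2 are lowest in the siGGGGGC libraries at 48 h, whereas COL8A1, LOX and LAMA3 stand out in the siGGCAGU libraries.

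Of the 9 enzymes and chaperones of collagen maturation, 1 was called higher and 4 lower with siGGGGGC, and 4 higher and 1 lower with siGGCAGU. Of all genes, 10.5% were called higher and 11.0% lower with siGGGGGC, and 10.7% and 9.62% with siGGCAGU. TGM2, which crosslinks fibronectin and other matrix proteins, had 11609 and 9730 counts with siNT1 at 48 h. It had 484.0 and 532.3 with siGGGGGC and 6045 and 5988 with siGGCAGU. The siGGGGGC libraries held the lowest values of all 10. The difference was −4.39 (SE 0.111), a 21-fold lower level and the largest difference of any member, with siGGGGGC. It was −0.83 (SE 0.0944, adjusted p = 2.6e-06) with siGGCAGU.

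SERPINH1 encodes HSP47, the collagen chaperone. It had 1269 and 1383 counts with siNT1 at 48 h, 488.5 and 399.7 with siGGGGGC and 1590 and 1840 with siGGCAGU. It fell by 1.58 (SE 0.113, adjusted p = 1.92e-08) with siGGGGGC, while siGGCAGU gave a difference of 0.37 (SE 0.105, adjusted p = 0.00728), short of a call.

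The lysyl hydroxylases did not move together. PLOD1 had 1345 and 1229 counts with siNT1 at 48 h, 488.5 and 508.4 with siGGGGGC and 648.7 and 607.7 with siGGCAGU. It was lower with both, without overlap, by 1.37 (SE 0.102, adjusted p = 2.98e-08) and by 1.04 (SE 0.0997, adjusted p = 3.94e-07). PLOD2, which hydroxylates the collagen telopeptides, was −0.31 (SE 0.0948, adjusted p = 0.0109) with siGGGGGC and rose by 1.03 (SE 0.0955, adjusted p = 2.54e-07) with siGGCAGU. The PLOD1 and PLOD2 calls with siGGCAGU lay close to the size limit: without replicate 1 of siNT1 at 48 h the values were −0.97 for PLOD1 and 0.96 for PLOD2. Without replicate 2 of siGGCAGU PLOD1 was −0.99, and without its replicate 1 PLOD2 was 0.97.

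P4HA1 and P4HA2 are catalytic subunits of prolyl 4-hydroxylase, which stabilises the collagen helix. P4HA1 had 837.2 and 960.7 counts with siNT1 at 48 h, 2176 and 2069 with siGGGGGC and 1907 and 1648 with siGGCAGU. It was above the controls in all 4 treated libraries. It rose by 1.24 (SE 0.0986, adjusted p = 6.09e-08) with siGGGGGC, and with siGGCAGU it was 0.98 higher (SE 0.0985, adjusted p = 6.55e-07), just short of a call. P4HA2 rose by 1.19 (SE 0.108, adjusted p = 2.03e-07) with siGGCAGU and was at 0.26 (SE 0.111, adjusted p = 0.059) with siGGGGGC.

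The lysyl oxidases start collagen and elastin crosslinks outside the cell. LOX had 719.5 and 515.6 counts with siNT1 at 48 h, 298.4 and 295.1 with siGGGGGC and 2414 and 2089 with siGGCAGU. It fell by 1.05 (SE 0.163, adjusted p = 5.64e-05) with siGGGGGC, a call that was lost without replicate 1 of siNT1 (−0.80). It rose by 1.87 (SE 0.151, adjusted p = 5.65e-08) with siGGCAGU. LOXL2 stood at −0.84 (SE 0.11, adjusted p = 1.09e-05) with siGGGGGC and rose by 1.39 (SE 0.105, adjusted p = 2.9e-08) with siGGCAGU. LOXL1 was −0.63 (SE 0.206, adjusted p = 0.0165) and −0.59 (SE 0.202, adjusted p = 0.0221), in the same order.

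The collagens diverged within the family. COL8A1, a short-chain collagen of the subendothelium, had 43.37 and 53.85 counts with siNT1 at 48 h, 8.942 and 7.249 with siGGGGGC and 1087 and 1142 with siGGCAGU. The siGGGGGC libraries rested on 8 and 7 raw counts. It rose by 4.50 (SE 0.15, adjusted p = 8.22e-12), a 22.7-fold higher level and the largest rise of any member, with siGGCAGU, and fell by 2.59 (SE 0.297, adjusted p = 2.79e-06) with siGGGGGC.

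COL5A2, a chain of the collagen that nucleates fibrils, had 685.4 and 741.9 counts with siNT1 at 48 h. It fell by 1.21 (SE 0.107, adjusted p = 1.88e-07) with siGGGGGC, to 328.6 and 289.9 counts, and rose by 1.24 (SE 0.0986, adjusted p = 4.87e-08) with siGGCAGU, to 1620 and 1755. Its partner chain COL5A1 was sparse, at 3.873 and 5.729 counts with siNT1 and 19.62 and 32.73 with siGGCAGU, a rise of 2.44 (SE 0.547, adjusted p = 0.00149). COL1A1 was at 1.32 with siGGCAGU (SE 0.559, adjusted p = 0.0595) and was not called. Its siNT1 libraries held 15.49 and 3.437 counts, and the value was 2.64 (adjusted p = 0.0045) without replicate 1 of siNT1 and 0.51 (adjusted p = 0.455) without replicate 2. It was 0.82 (adjusted p = 0.324) without replicate 1 of siGGCAGU and 1.82 (adjusted p = 0.0269) without its replicate 2.

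COL16A1, a fibril-associated collagen, was higher with both duplexes. It had 50.34 and 49.84 counts with siNT1 at 48 h, 144.2 and 151.2 with siGGGGGC and 181.8 and 201.6 with siGGCAGU. The rises were 1.56 (SE 0.176, adjusted p = 2.29e-06) and 1.94 (SE 0.17, adjusted p = 1.43e-07). The neighbouring genes COL4A1 and COL4A2, the main chains of type IV collagen, lie head to head on chromosome 13 with starts 1345 bases apart. They had differences of −0.78 (SE 0.122, adjusted p = 5.93e-05) and −0.67 (SE 0.127, adjusted p = 0.000362) with siGGGGGC, and neither was called. With siGGCAGU the type VI chain COL6A1 rose by 1.36 (SE 0.199, adjusted p = 3.35e-05), whereas COL6A2, its neighbour on chromosome 21, was at 0.28 (SE 0.174, adjusted p = 0.19). Without replicate 2 of siNT1 at 48 h COL6A1 was at 0.99 with siGGCAGU, short of a call.

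Among the 11 laminins and basement membrane genes, 2 were called higher and 1 lower with siGGGGGC, and 3 higher and none lower with siGGCAGU. The shares of all genes called were 10.5% higher and 11.0% lower with siGGGGGC, and 10.7% and 9.62% with siGGCAGU. LAMA3, a chain of the epithelial laminin that anchors hemidesmosomes, had 24.01 and 28.07 counts with siNT1 at 48 h and 227.6 and 164.4 with siGGCAGU. This was a rise of 2.88 (SE 0.214, adjusted p = 2.41e-08), while with siGGGGGC it was at 24.59 and 20.71 (adjusted p = 0.556). Its usual partner LAMB3 was at 0.12 with siGGCAGU (SE 0.0941, adjusted p = 0.307).

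LAMA5, a broadly expressed laminin chain, had 44.15 and 46.40 counts with siNT1 at 48 h, 137.5 and 142.9 with siGGGGGC and 70.62 and 70.66 with siGGCAGU. All treated libraries were above both controls. It rose by 1.62 (SE 0.172, adjusted p = 1.16e-06) with siGGGGGC, and the siGGCAGU difference was 0.64 (SE 0.185, adjusted p = 0.00882). AGRN, which encodes the heparan sulfate proteoglycan agrin, had 278.8 and 190.2 counts with siNT1 at 48 h, 488.5 and 491.9 with siGGGGGC and 460.3 and 440.3 with siGGCAGU. It rose by 1.07 (SE 0.166, adjusted p = 5.34e-05) with siGGGGGC, a call lost without replicate 2 of siNT1 (0.81), and was at 0.95 (SE 0.166, adjusted p = 0.000174) with siGGCAGU. LAMA4 was called lower with siGGGGGC (adjusted p = 0.000908), but the siGGGGGC libraries held 2 and 0 raw counts of it, beside 17 and 29 with siNT1, so no fold is given.

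HSPG2, which encodes the basement membrane proteoglycan perlecan, rose by 2.24 (SE 0.225, adjusted p = 6.41e-07) with siGGCAGU, from 39.50 and 29.22 counts to 159.6 and 160.7. NID2, a nidogen, rose by 1.25 (SE 0.287, adjusted p = 0.00175). LDLRAD2 on the opposite strand overlaps 11.71% of the exon length of HSPG2, and RTRAF overlaps 30.71% of that of NID2. The strand setting of the counting was not given in the sources used here, so reads of such pairs cannot be told apart, and the same holds for COL18A1, where SLC19A1 overlaps 18.47%.

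The laminin chains LAMB1, LAMB2, LAMB3 and LAMC1 and the nidogen NID1 gave no call with either duplex at 48 h. With siGGGGGC at 48 h LAMC1 was at −0.69 (SE 0.0962, adjusted p = 2.04e-05) and LAMB3 at −0.46 (SE 0.0948, adjusted p = 0.000763), both short of a call, and LAMB1 was at −0.18 (adjusted p = 0.137) and LAMB2 at −0.24 (adjusted p = 0.0915). With siGGCAGU LAMB2 was at 0.50 (SE 0.113, adjusted p = 0.00164), NID1 at −0.57 (SE 0.198, adjusted p = 0.025) and LAMB1 at −0.17 (adjusted p = 0.158). Of the remaining collagens, COL12A1, a fibril-associated chain, was at −0.44 with siGGGGGC (SE 0.121, adjusted p = 0.00563), and COL18A1, the source of endostatin, passed neither test (adjusted p = 0.324 and 0.34).

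Of the 4 tested matricellular genes, none was called with siGGGGGC and 2 were called higher with siGGCAGU, beside 21.5% of all genes called and 10.7% called higher. FSTL1, a secreted glycoprotein of the SPARC family, had 5277 and 5430 counts with siNT1 at 48 h, 9420 and 9338 with siGGGGGC and 17417 and 14921 with siGGCAGU. Both duplexes gave values above the controls. The difference was 0.81 (SE 0.091, adjusted p = 2.24e-06) with siGGGGGC, short of a call, and the rise with siGGCAGU was 1.59 (SE 0.0924, adjusted p = 1.67e-09).

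THBS1, which encodes the TGF-beta activator thrombospondin 1, had 932.5 and 723.0 counts with siNT1 at 48 h, 401.3 and 450.4 with siGGGGGC and 2750 and 2228 with siGGCAGU. It rose by 1.59 (SE 0.126, adjusted p = 4.92e-08) with siGGCAGU. With siGGGGGC it stood at −0.95 (SE 0.134, adjusted p = 2.08e-05). SPARC was at −0.04 with siGGGGGC (SE 0.094, adjusted p = 0.766) and 0.46 with siGGCAGU (SE 0.0941, adjusted p = 0.000693). TGFBI, a TGF-beta-induced adhesion protein, was at −0.93 (SE 0.11, adjusted p = 3.67e-06) with siGGGGGC.

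Members with and without a seed match were set side by side. With siGGGGGC at 48 h, the 17 tested members with GCCCCC had a median of −0.24 and the 25 without had −0.69, beside −0.15 and 0.07 for all genes with and without the word. At 24 h with siGGGGGC these medians were 0.401 and −0.105 over members, beside 0.013 and 0.040 over all genes. With siGGCAGU at 48 h, the 21 members with ACTGCC had a median of 0.46 and the 21 without had 0.64, beside −0.05 and 0.08. These medians are a description and carry no test.

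The 2 duplexes were also compared directly at 48 h. siGGGGGC cells had the lower level for 21 called members and the higher level for 1, beside 12.8% and 10.1% of all genes, and 23.0% of all genes in either direction. The member median was −1.04, beside −0.01 over all genes. COL8A1 was the most different, at −7.09 (SE 0.211, adjusted p = 3.82e-12), followed by FN1 at −4.31 (SE 0.133) and TGM2 at −3.57 (SE 0.108). LAMA3 was at −3.09 (SE 0.239, adjusted p = 3.53e-08), LOX at −2.92 (SE 0.164, adjusted p = 1.13e-09) and HSPG2 at −2.78 (SE 0.26, adjusted p = 2.74e-07). All 3 tested fibrillar collagen genes were called lower, COL5A2 at −2.45 (SE 0.108, adjusted p = 1.09e-10). The call for COL1A1 was lost without replicate 1 of siGGCAGU (−1.52, adjusted p = 0.11) or of siGGGGGC (−1.59, adjusted p = 0.137), and that for COL5A1 without replicate 2 of siGGCAGU (−1.71, adjusted p = 0.0815).

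FBLN1 was the only member called higher with siGGGGGC than with siGGCAGU, at 2.31 (SE 0.373, adjusted p = 8.32e-05), from 64.83 and 55.92 against 18.31 and 8.182 counts. LAMA5 was 0.99 higher (SE 0.171, adjusted p = 0.000151) and P4HA1 0.26 higher (SE 0.097, adjusted p = 0.0342). Differences that did not pass the test were 0.12 for AGRN (SE 0.162, adjusted p = 0.543), −0.38 for COL16A1 (SE 0.158, adjusted p = 0.0529) and 0.42 for NID1 (SE 0.206, adjusted p = 0.0957).

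**Figure D4:**
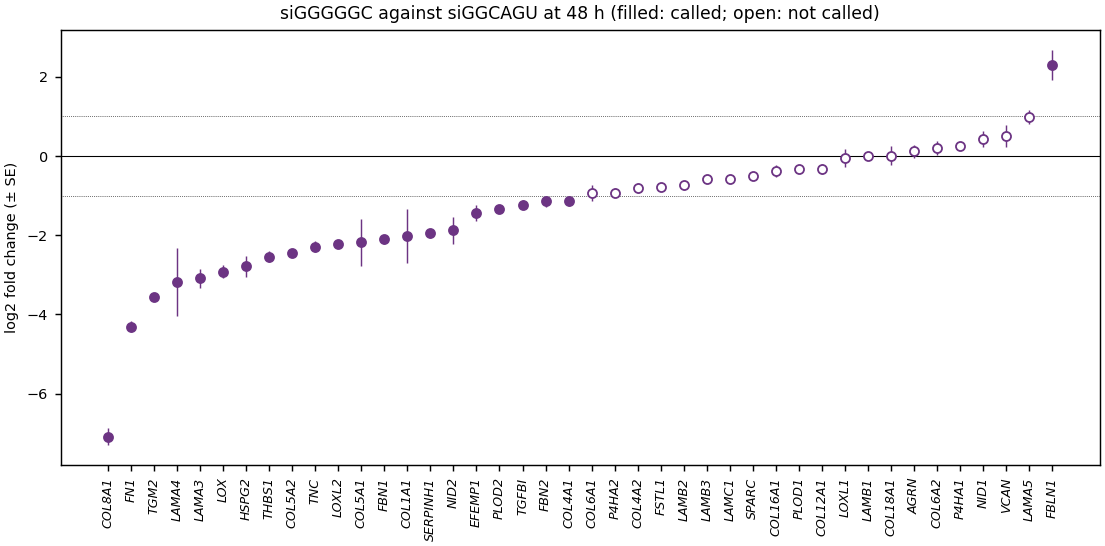
Log2 fold change (± SE) of siGGGGGC against siGGCAGU at 48 h for the 42 tested matrix genes in order, filled where called, with dotted lines at −1 and 1. The points run from COL8A1 at −7.09 to FBLN1 at 2.31, and 21 filled points lie below −1.

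At 24 h the matrix genes had moved less. With siGGGGGC, 3 of the 42 members were called, beside 3.72% of all genes, 1 higher (1.55%) and 2 lower (2.17%). The member median was 0.09, beside 0.00 over all genes, and 10 higher and 6 lower members passed the p threshold alone, as did 10.6% and 8.32% of all genes. TGM2 had 6288 and 6164 counts with siNT1 at 24 h and 2002 and 1930 with siGGGGGC, a difference of −1.66 (SE 0.0984). FN1 had 4958 and 4960 counts with siNT1 and 1787 and 1830 with siGGGGGC, a fall of 1.46 (SE 0.121, adjusted p = 1.36e-06). LAMA5 rose by 1.28 (SE 0.186, adjusted p = 0.000206), from 63.25 and 57.61 to 163.1 and 131.6 counts.

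TNC was 0.84 lower at 24 h (SE 0.13, adjusted p = 0.000336), with 1406 and 1500 counts beside 2629 and 2592 in the controls. VCAN was at −0.52 (SE 0.195, adjusted p = 0.08), LOX at −0.43 (SE 0.182, adjusted p = 0.115) and FBN1 at −0.22 (SE 0.126, adjusted p = 0.263), and none of these passed the test. THBS1 and LOXL2, which were below the controls at 48 h, were above them at 24 h, at 0.57 (SE 0.146, adjusted p = 0.0126) and 0.44 (SE 0.111, adjusted p = 0.0117). AGRN was 0.81 higher (SE 0.185, adjusted p = 0.00646) and LAMB2, a laminin beta chain, 0.65 higher (SE 0.127, adjusted p = 0.00212).

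The control cells themselves changed with time in culture. Between 24 and 48 h with siNT1, 8 of the 42 members were called higher and none lower. This compares with 1.53% of all genes called in either direction, 1.06% higher and 0.461% lower. Passing the p threshold alone were 22 higher and no lower members, beside 9.37% and 7.20% of all genes, and the median was 0.50, beside 0.00. FN1 rose by 1.83 (SE 0.119, adjusted p = 2e-06), from 4958 and 4960 to 20024 and 15152 counts, and FBN1 by 1.40 (SE 0.118, adjusted p = 1.22e-05). TNC rose by 1.36 (SE 0.127, adjusted p = 2.43e-05), COL4A1 by 1.29 (SE 0.125, adjusted p = 3.06e-05), THBS1 by 1.23 (SE 0.138, adjusted p = 0.000121) and the basement membrane linker NID1 by 1.21 (SE 0.216, adjusted p = 0.0026). Media were changed at 24 h in the wells kept to 48 h, so medium change and time cannot be told apart. The 2 siNT1 libraries at 48 h differed from each other, with FN1, TNC, NID1 and COL6A1 all higher in replicate 1, and what set them apart was not tested. Over all genes with a mean of at least 100 normalised counts, log2 differences between replicates had an SD of 0.234 in this group. That SD was 0.277 for siGGCAGU at 48 h, 0.161 for siGGGGGC at 48 h, and 0.147 and 0.179 for siNT1 and siGGGGGC at 24 h. The SEs came from a spread shared by the 5 groups.

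The calls of COL6A1, NID1 and COL8A1 over time rested on single libraries. Without replicate 1 of siNT1 at 48 h COL6A1 was at 0.58 (adjusted p = 0.129) and NID1 at 0.80 (adjusted p = 0.0197), against 1.01 and 1.21 with all libraries. Without replicate 1 of siNT1 at 24 h COL6A1 was at 1.07 (adjusted p = 0.0905) and NID1 at 1.07 (adjusted p = 0.0556), and without replicate 2 COL6A1 was at 0.96 (adjusted p = 0.117). COL8A1, at 1.05 with all libraries, was at 0.72 (adjusted p = 0.15) without replicate 2 of siNT1 at 24 h and at 0.87 (adjusted p = 0.0418) without replicate 2 at 48 h.

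Whether the siGGGGGC difference changed between the times was tested as an interaction, the effect at 48 h minus the effect at 24 h. It was called for 14 of the 42 members, beside 11.2% of all genes, with 13 more negative at 48 h (6.36% of all genes) and 1 more positive (4.83%). TNC had an interaction of −2.88 (SE 0.188), TGM2 of −2.73 (SE 0.141) and FN1 of −2.26 (SE 0.169). COL8A1 had −2.13 (SE 0.486, adjusted p = 0.00402) and VCAN −2.10 (SE 0.29, adjusted p = 7.92e-05). PLOD1 and SERPINH1, which were not called at 24 h, had −1.33 (SE 0.144, adjusted p = 9.01e-06) and −1.30 (SE 0.159, adjusted p = 2.79e-05).

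P4HA1 was the single member with a more positive effect at 48 h, at 1.20 (SE 0.142, adjusted p = 2.06e-05). Its counts at 24 h were 1042 and 1061 with siNT1 and 1035 and 1127 with siGGGGGC, which overlap. FN1 shows what the interaction measures: in siNT1 wells its mean rose from 4959 to 17588 normalised counts, whereas in siGGGGGC wells it was 1809 at 24 h and 1335 at 48 h. TNC rose from 2611 to 6689 in the controls and was 1453 and 506.6 with siGGGGGC.

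**Figure D5:**
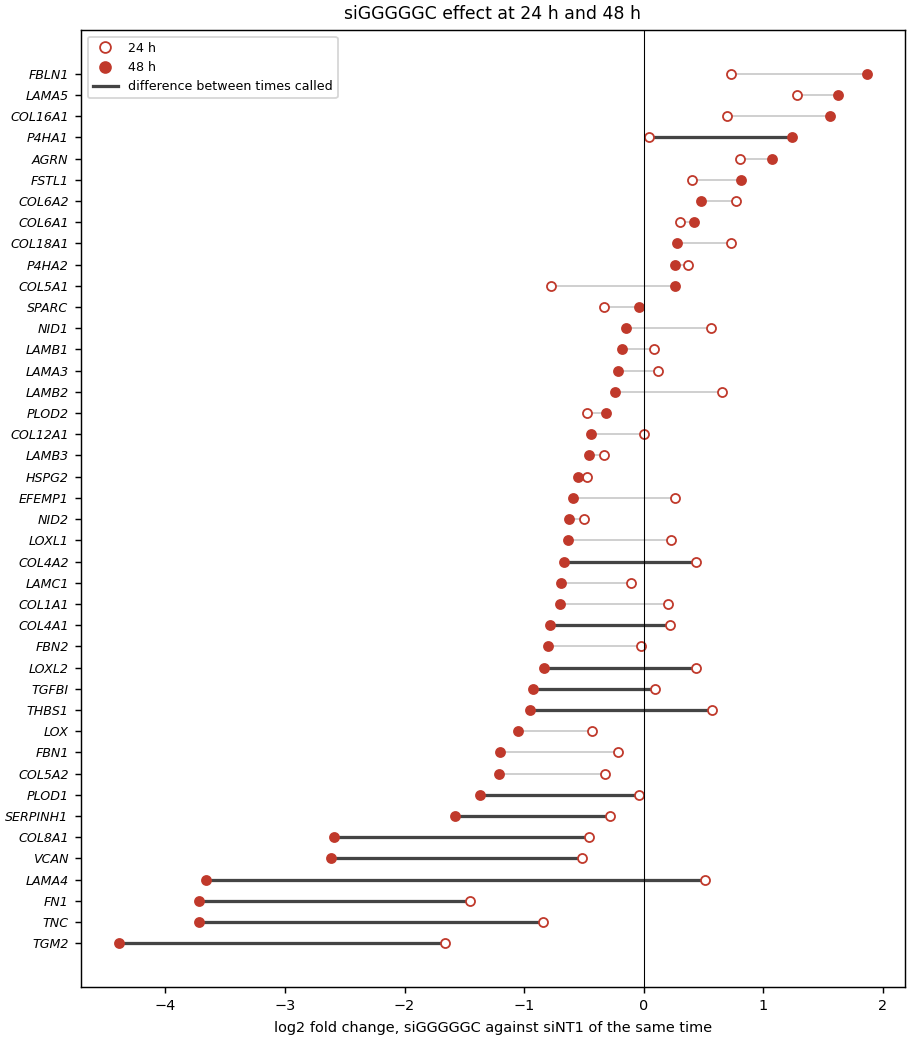
Log2 fold change of siGGGGGC against siNT1 of the same time for the 42 tested matrix genes, with open points at 24 h and filled points at 48 h, and a dark line where the difference between the times was called. TGM2 runs from −1.66 to −4.39 and TNC from −0.84 to −3.72, while P4HA1 is the only dark line that runs to the right.

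Genes of 4 further lists from the same biology were counted the same way, and the shares of all genes called at 48 h are repeated here: 10.5% higher and 11.0% lower with siGGGGGC, 10.7% and 9.62% with siGGCAGU. The counts of these lists are a description. Of 26 tested matrix proteases and inhibitors, 3 were called higher and 6 lower with siGGGGGC at 48 h, and 8 higher and 1 lower with siGGCAGU. MMP14, the membrane collagenase, fell by 1.45 (SE 0.087, adjusted p = 3.25e-09) with siGGGGGC and ADAMTS1, a versican-cleaving protease, by 1.65 (SE 0.0946, adjusted p = 1.98e-09). TIMP2, an inhibitor of MMPs, fell by 1.32 (SE 0.211, adjusted p = 7.38e-05) with siGGGGGC and rose by 1.22 (SE 0.186, adjusted p = 5e-05) with siGGCAGU. ADAM17, the sheddase of membrane ligands, rose with both, by 1.76 (SE 0.0866, adjusted p = 3.56e-10) and 1.38 (SE 0.0861, adjusted p = 3.98e-09).

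Of 40 other matrix proteins, 3 were called higher and 9 lower with siGGGGGC at 48 h, and 11 higher and 3 lower with siGGCAGU. CCDC80, a matrix protein that had 50306 and 52844 counts in the controls, was at 9319 and 8956 with siGGGGGC, a fall of 2.50 (SE 0.0993, adjusted p = 4.19e-11). The syndecan SDC1 fell with both duplexes, by 2.10 (SE 0.0981, adjusted p = 2.22e-10) and 1.59 (SE 0.0955, adjusted p = 2.51e-09). SPP1, which encodes osteopontin, rose by 1.73 (SE 0.119, adjusted p = 9.95e-09) with siGGCAGU.

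Of 26 other collagen processing genes, 1 was called higher and 1 lower with siGGGGGC, and 1 higher and 3 lower with siGGCAGU. The peptidyl-prolyl isomerase FKBP14 fell by 1.52 (SE 0.114, adjusted p = 3.17e-08) with siGGGGGC, and the collagen galactosyltransferase COLGALT1 by 1.44 (SE 0.0945, adjusted p = 6.16e-09) with siGGCAGU. Of 24 genes of the TGF-beta pathway, which drives transcription of many matrix genes, 5 were called higher and 2 lower with siGGGGGC, and 4 higher and none lower with siGGCAGU. The ligand TGFB2 had 6.196 and 10.88 counts with siNT1 at 48 h and 299.5 and 294.5 with siGGCAGU, a rise of 5.05 (SE 0.224, adjusted p = 1.09e-10). INHBA, the activin A subunit, fell by 2.08 (SE 0.123, adjusted p = 2.83e-09) with siGGGGGC and rose by 1.19 (SE 0.116, adjusted p = 4.44e-07) with siGGCAGU. The receptor TGFBR2 fell by 1.51 (SE 0.119, adjusted p = 5.31e-08) with siGGGGGC. INHBA and TGFBR2 were the 2 genes of this list called lower with siGGGGGC, and the 5 called higher are not named here. The list ran from −2.08 to 1.72 with siGGGGGC, with a median of 0.24, beside −0.01 over all genes. At 24 h with siGGGGGC, the 115 tested genes of these 4 lists gave no call higher and 5 lower, beside 1.55% and 2.17% of all genes.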

How the data were processed

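RNA-seq libraries of total RNA (TruSeq) were made from HeyA8 cells, 2 wells for each of 5 groups. Per the labels and the study's methods, the authors trimmed reads, aligned them to hg38 (TopHat with Bowtie2 in the submitters' processing notes; the methods name TopHat or STAR) and counted reads per Ensembl gene with HTSeq. The deposited values used here were these raw counts per gene, not normalized. The strand setting was not given in the sources used here. The 4 tables of the authors' own comparisons (fold changes and p-values) were not used.

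Counts were filtered with filterByExpr over the 5 groups (16905 genes kept), scaled by TMM and fitted in a single model of all 10 libraries with edgeR 4.0.16 (R 4.3.3, glmQLFit and glmQLFTest), with 5 residual degrees of freedom and a biological coefficient of variation of 0.0837. P-values were adjusted by Benjamini-Hochberg over all genes tested. Calls needed an adjusted p below 0.05 and a log2 fold change beyond 1. SEs were taken from the fold change and the square root of F. The fit was tested on simulated data. Symbols, exon lengths and 3′ UTRs came from GENCODE 44, in which 98.9% of the gene identifiers were found. Every tested member is covered by its role or by counts. Library values were printed for FN1, TNC and TGM2 and, in each comparison with siNT1, the 6 called members with the largest rise and the 6 with the largest fall that had a mean of at least 100 normalised counts (3 each way between the duplexes). Other genes described were chosen after their values were seen. The members and lists were chosen with earlier results of these data known.

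Alternatives were DESeq2 1.42.0, other normalizations, other filters on low counts, only the libraries compared, counts without RN7SL2 and SNORD3A, a replicate block and leaving out each library.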

Additional observations from a re-analysis of the deposited data

Results flagged for a closer look

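For 14 of the 42 tested matrix genes, beside 11.2% of all genes, the effect of siGGGGGC differed between 24 and 48 h. The test was of that difference itself, the interaction term (edgeR quasi-likelihood test, called at adjusted p below 0.05 and beyond 1 on the log2 scale). All values are the log2 effect at 48 h minus that at 24 h. Among glycoproteins these were FN1 at −2.26, TNC at −2.88 and VCAN at −2.10. Among enzymes and chaperones they were TGM2 at −2.73, PLOD1 at −1.33, SERPINH1 at −1.30, LOXL2 at −1.28 and P4HA1 at 1.20. Among collagens they were COL8A1 at −2.13, COL4A2 at −1.11 and COL4A1 at −1.001. THBS1 stood at −1.52 and TGFBI at −1.02. LAMA4 gave a fitted −4.18, with 2 and 0 raw counts in the siGGGGGC libraries at 48 h, so its size depends on the prior count, ran from −7.47 to −3.20 over the alternatives and is not a fold. The 48 h values of FN1, TNC and TGM2 and the 24 h value of TGM2 were known when the genes were listed. Both terms of the TGM2 interaction were thus known, so its value is a description and no test. COL4A1 lay at the size limit and lost its call under 6 of the other settings and 4 of the omissions of a library. COL4A2 lost it without replicate 1 of siGGGGGC at 24 h (−0.99) or of siNT1 at 48 h (−0.91). TGFBI lost it without replicate 2 of siGGGGGC at 24 h (−0.92) or of siNT1 at 48 h (−0.98), and with upper-quartile scaling. LAMA4 lost it without replicate 2 of siGGGGGC at 24 h (adjusted p = 0.0712) or at 48 h (adjusted p = 0.0621).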

How the results depend on the processing

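The numbers of matrix genes called stayed within 1.5 times under every alternative run, at 3 to 4 for siGGGGGC at 24 h, 14 to 18 at 48 h, 15 to 18 for siGGCAGU, 17 to 23 between the duplexes, 6 to 11 for siNT1 over time and 12 to 17 for the interaction. Of 2287 gene values recomputed for 184 gene results, 42 lost and 39 gained a call and none changed sign. These results were those with an adjusted p below 0.05 in the main fit, with some others added. Many values near 0 were thus left out, and whether those changed sign is not given here. With a mean count of at least 50, fewer genes were tested and the calls over all genes were 393 for siGGGGGC at 24 h, 2061 at 48 h, 2013 for siGGCAGU, 2288 between the duplexes and 147 for siNT1 over time (629, 3636, 3430, 3881 and 258 as reported). With no filter the siNT1 count was 414, and leaving out 1 library moved it between 106 and 424; the cause was not tested. With no filter the median over all genes shifted by −0.121 for siGGGGGC at 48 h and by −0.134 for the interaction. AGRN lost its siGGGGGC call at 48 h with no filter (0.95), as did PLOD2 its siGGCAGU call (0.95, and 0.99 with only the libraries compared). With upper-quartile scaling COL6A1 (0.96) lost its call over time and TGFBI (−0.98) its interaction call; these values lay near the size limit. ACTGCC was found in 10 members when the shortest 3′ UTR was used (21 with the longest), since less sequence was searched. With the canonical transcript ACTGCC was found in 18 members and GCCCCC in 19, beside 34.2% and 29.4% of all genes.

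Deviations of same-numbered replicates had correlations of −0.361 to 0.145 between groups (9979 genes), so the numbers were not used as a pairing. Whether replicates with other numbers shared a batch was not tested. With a replicate block the matrix gene calls were 3, 16, 18, 22, 8 and 13 in the order above, and all gene calls were 593, 3601, 3399, 3849, 233 and 1836. COL1A1 gained a call with siGGCAGU (1.40) and COL4A1 lost its interaction call (−0.999).

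With 2 libraries a group, the sparse members COL1A1, COL5A1, LAMA4, NID2 and FBLN1 have SEs of 0.287 or more in every comparison, the values measured least well here.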
